A study of Mus musculus with 12 samples.

Results

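The small leucine-rich proteoglycans are secreted matrix proteins, and the 8 followed here are decorin (Dcn), biglycan (Bgn), asporin (Aspn), lumican (Lum), fibromodulin (Fmod), Prelp, osteomodulin (Omd) and osteoglycin (Ogn). They were taken by symbol from 18255 genes listed in the deposited tables, and all 8 were found. Dcn and Lum had been noted as higher in cells overexpressing LIGHT, so their differences between the lines are given below as a description with no test. The study used 3T3-L1 cells, a mouse preadipocyte line, as a control line (NC) and as a line overexpressing LIGHT, the cytokine encoded by Tnfsf14. Each line was sequenced before differentiation (NC-Undiff, LIGHT-Undiff) and after differentiation into beige adipocytes (NC-Diff, LIGHT-Diff), with 3 libraries in each of the 4 groups. All cells grew in high-glucose medium with 10% fetal bovine serum. The differentiated groups also received, for 48 h, insulin at 5 µg/ml, dexamethasone at 2 µg/ml, IBMX at 0.5 mM, rosiglitazone at 1 µM, tri-iodothyronine at 1 nM and indomethacin, and then a maintenance medium with rosiglitazone, tri-iodothyronine and insulin. Neither the vector, the number of clones per line nor the day of harvest is stated in the labels. The labels do not say whether replicates were separate cultures, so p-values measure only the spread between these libraries, which may be technical.

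The family shares a core of leucine-rich repeats that curves into a solenoid and lies along collagen fibrils, where it sets fibril spacing and diameter. Class I (Dcn, Bgn, Aspn) carries chondroitin or dermatan sulfate chains, except for asporin, which carries an aspartate-rich stretch instead. Class II (Lum, Fmod, Prelp, Omd) has members with keratan sulfate chains, and class III includes Ogn. Several members also bind transforming growth factor beta, and biglycan released from the matrix can signal through Toll-like receptors. In fat, these proteins come mainly from stromal and precursor cells, which lie in a collagen matrix that is remodelled as adipocytes fill with lipid.

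Aspn, Omd and Ogn lie next to each other on chromosome 13, after Ecm2. Dcn, Lum and Kera are neighbours on chromosome 10, Optc, Prelp and Fmod on chromosome 1, and Bgn is on the X chromosome (RefSeq, GRCm38.p6). The 250 bases before the start of the 3 neighbours on chromosome 13 are shown because, in LIGHT cells, Aspn was higher and Ogn lower after differentiation (below). Omd lies between them, and its direction in LIGHT cells was fixed by the filter on low counts (below). All 3 lie on the plus strand, are written 5′ to 3′ and come from RefSeq with build GRCm38.p6. Capitals mark matches to the motifs searched. The windows are chr13:49544193-49544442 for Aspn, chr13:49582212-49582461 for Omd and chr13:49607765-49608014 for Ogn.
Aspn: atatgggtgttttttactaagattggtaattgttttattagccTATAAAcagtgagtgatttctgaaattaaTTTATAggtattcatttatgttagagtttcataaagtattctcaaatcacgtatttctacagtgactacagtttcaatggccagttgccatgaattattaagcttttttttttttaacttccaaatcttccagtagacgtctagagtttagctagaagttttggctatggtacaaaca
Omd: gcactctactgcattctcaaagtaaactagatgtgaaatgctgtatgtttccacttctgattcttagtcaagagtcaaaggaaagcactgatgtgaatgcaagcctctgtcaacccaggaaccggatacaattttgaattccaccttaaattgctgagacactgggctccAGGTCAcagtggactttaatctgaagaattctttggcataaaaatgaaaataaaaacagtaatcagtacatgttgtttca
Ogn: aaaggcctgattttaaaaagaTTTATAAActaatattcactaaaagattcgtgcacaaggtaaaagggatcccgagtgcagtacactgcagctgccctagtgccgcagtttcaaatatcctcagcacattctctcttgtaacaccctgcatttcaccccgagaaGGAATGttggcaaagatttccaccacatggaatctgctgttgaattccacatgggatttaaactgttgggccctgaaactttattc
The motifs were a TATA box (TATAAA), an AP-1 site (TGACTCA), a core element of nuclear receptors such as PPARγ (AGGTCA), a core element of the glucocorticoid receptor (AGAACA) and a TEAD site (GGAATG), each searched on both strands. Of 32851 promoter windows of the same length, 12.4% held TATAAA, 4.46% TGACTCA, 14% AGGTCA, 16.1% AGAACA and 12.6% GGAATG. The Aspn window held TATAAA at -207 and its reverse complement at -178, counted from the transcript's start. The Ogn window held an overlapping pair at -229 and -227 and GGAATG at -86, and the Omd window held AGGTCA at -80. Such a match is a description of letters and not a binding site. The table held windows for 6 of the 8 members, and Dcn and Lum were not among them. GC content was 30.0% in the Aspn window, 38.4% in Omd, 42.0% in Ogn, 51.2% in Fmod, 55.6% in Prelp and 64.4% in Bgn, against a median of 52.4% over all windows.

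The libraries held 16334079 to 19686675 expected counts, so 3 counts were worth 0.152 to 0.184 CPM (read counts scaled to library size, with TMM factors). Tnfsf14, the gene overexpressed, had 0, 1 and 0 counts in NC-Undiff and 38, 53 and 58 in LIGHT-Undiff. After differentiation it had 113 counts in NC-Diff 1 and 0 in NC-Diff 2 and 3, and 0 in LIGHT-Diff 1 but 148 and 122 in LIGHT-Diff 2 and 3. NC-Diff 1 and LIGHT-Diff 1 therefore go against their labels and are called the doubted libraries. The changes of the 8 members in differentiated cells are given for the libraries as labelled and again without these 2. Summed markers of fibroblasts and preadipocytes were at 7670 to 8579 CPM before differentiation and 5522 to 5771 after it, and summed adipocyte markers (7 genes, among them Adipoq) at 39.2 to 59.0 and 9387 to 14990. Vim made up most of the first sum (5411 CPM in NC-Undiff, 4113 in NC-Diff). Of its 8 genes, 6 fell and 0 rose in each line (31.7% and 29.1% of all genes fell), while mean Pdgfra went from 103 to 158 CPM in control and from 178 to 198 in LIGHT cells. Fabp4 made up most of the adipocyte sum after differentiation (9966 CPM in NC-Diff, 8703 in LIGHT-Diff).

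Biglycan was by far the most abundant member per unit of length. It stood at 1347 ± 80.5 FPKM (fragments per kilobase of length, scaled to library size; SD, n = 3) in NC-Undiff and 1246 FPKM on average in LIGHT-Undiff, and made up 96.0% to 96.4% and 88.5% to 89.7% of the summed FPKM of the 8 members. In NC-Undiff the order after Bgn was Aspn (16.65 ± 2.17), Dcn (14.1), Ogn (12.1), Prelp (9.48), Fmod (0.687), Omd (0.277) and Lum (0.143), and the libraries of Aspn and Dcn overlapped. In LIGHT-Undiff, Dcn came after Bgn at 53.8 FPKM, ahead of Aspn (42.5) and Ogn (41.6), whose libraries overlapped. Computed as CPM per kilobase instead, 8 of 32 group levels moved by more than their SD (0.871 to 1.0 times the FPKM), and the order of the members was the same in all 4 groups.

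After differentiation lumican moved from the last place to the middle of the order. With the doubted libraries left out, NC-Diff held Bgn at 1125 FPKM, Aspn at 109 ± 16.1, Dcn at 93.4 ± 0.0636, Prelp at 32.4, Lum at 22.9 ± 1.17, Ogn at 5.90, Fmod at 1.14 and Omd at 0.035 (means, SD, n = 2). LIGHT-Diff held Bgn at 1101 FPKM, Dcn at 332 ± 6.48, Aspn at 117 ± 2.14, Lum at 88.1 ± 1.25, Prelp at 32.8, Ogn at 13.3, Fmod at 2.37 and Omd at 0.07. With the libraries as labelled, Dcn was at 174 ± 139 FPKM in NC-Diff and 250 ± 141 in LIGHT-Diff (SD, n = 3).

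**Figure D1:**
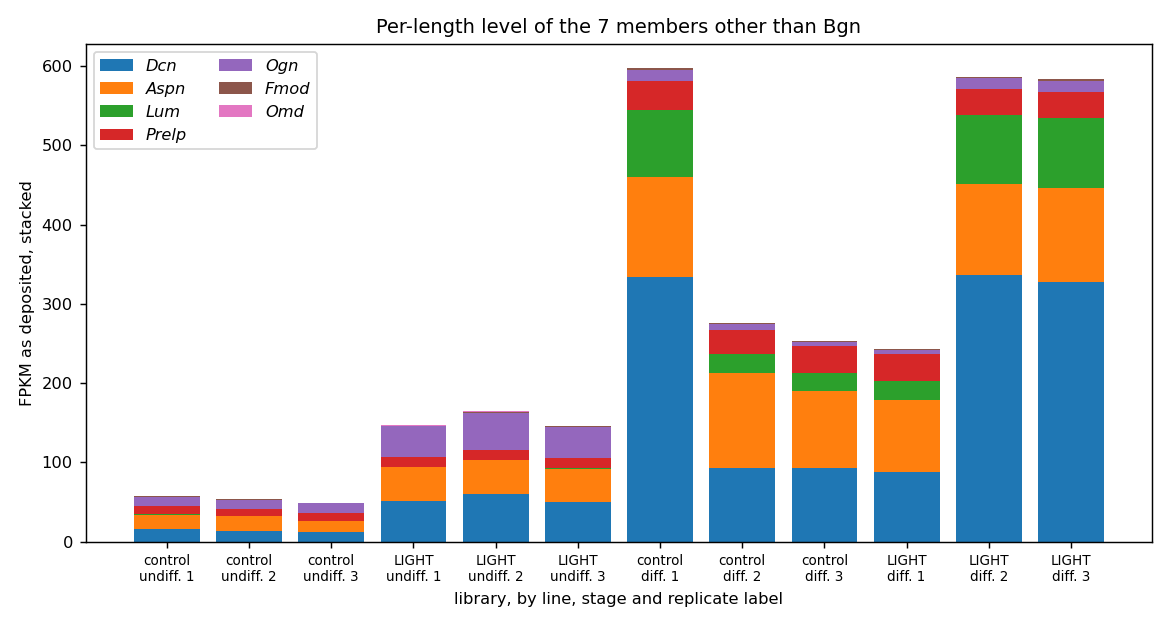
Stacked FPKM of the 7 members other than Bgn in each of the 12 libraries, each colour 1 gene and each bar 1 library. The sum was 49.3 to 57.7 FPKM in NC-Undiff and 145.9 to 164.2 in LIGHT-Undiff, and NC-Diff 1 (598) stands with LIGHT-Diff 2 and 3 (583.8 and 586.9), while LIGHT-Diff 1 (242.8) stands with NC-Diff 2 and 3 (253.0 and 275.5).

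The first question was how the family changed when cells of each line became beige adipocytes. Dcn, Aspn, Prelp and Fmod rose in both lines, Bgn did not pass the test in either, and Ogn fell in LIGHT cells. Lum passed the filter on low counts only through differentiated libraries and Omd only through LIGHT-Undiff. The filter thus fixed the direction of Lum in both lines and of Omd in LIGHT cells, and for these the text gives only counts and ratios. In control cells 4 of the other 6 members rose and 0 fell, where 32.2% of the 12993 genes tested rose and 31.7% fell. In LIGHT cells 4 of 6 rose and 1 fell, beside 29.5% and 29.1% of all genes. With NC-Diff 1 and LIGHT-Diff 1 left out, 4 rose and 1 fell in each line (background 35.8% and 34.9% in control cells, 32.3% and 31.9% in LIGHT cells). The median log2 fold change of the 6 was 1.63 in control cells and 1.16 in LIGHT cells, beside 0.0 and -0.004 over all genes. RNA was taken from whole cultures, so fewer cells expressing a gene and less RNA per cell cannot be told apart.

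Decorin, the class I member that binds collagen fibrils and transforming growth factor beta, was at 27.4, 22.9 and 20.6 CPM in NC-Undiff and at 595, 170 and 174 CPM in NC-Diff 1, 2 and 3. In LIGHT cells it was at 88.2, 102 and 84.7 CPM before and at 162, 586 and 574 CPM after differentiation. Every differentiated library stood above every undifferentiated one of its line, with 1 library of each differentiated group far from the other pair. The log2 fold change with differentiation was 3.73 (SE 0.55, adjusted p = 7.23e-05) in control and 2.26 (SE 0.51, adjusted p = 0.00205) in LIGHT cells. With the 2 left out, it was 2.89 (SE 0.09, adjusted p = 2.46e-16) and 2.67 (SE 0.08, adjusted p = 1.71e-16).

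Asporin, a class I member known to bind collagen and to restrain transforming growth factor beta, was at 37.4, 38.1 and 30.3 CPM in NC-Undiff and at 92.4, 92.5 and 89.6 CPM in LIGHT-Undiff. After differentiation it was at 284, 276 and 229 CPM in control and 212, 255 and 263 CPM in LIGHT libraries. The differentiated groups overlapped each other and stood above both undifferentiated groups, with NC-Diff 1 the highest and LIGHT-Diff 1 the lowest of the 6 differentiated libraries. Aspn rose by 2.90 on the log2 scale in control cells (SE 0.12, adjusted p = 6.53e-10) and by 1.41 in LIGHT cells (SE 0.11, adjusted p = 2.82e-07). Without the 2 libraries the rises were 2.86 (SE 0.08, adjusted p = 1.11e-16) and 1.51 (SE 0.08, adjusted p = 1.33e-12). Biglycan ranged from 2474 to 3115 CPM over the 12 libraries, with log2 fold changes of -0.10 in both lines (SE 0.07, adjusted p = 0.245 in control and 0.246 in LIGHT cells). With NC-Diff 1 and LIGHT-Diff 1 left out, they were -0.10 (SE 0.06, adjusted p = 0.13) and -0.13 (SE 0.06, adjusted p = 0.0518).

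Lumican, a class II keratan sulfate proteoglycan known from corneal collagen, had 5, 7 and 2 counts in NC-Undiff and 9, 12 and 9 in LIGHT-Undiff. After differentiation it had 2670, 787 and 841 counts in control and 784, 3169 and 2821 in LIGHT libraries. It thus went from near the counting floor to at least 784 counts in all 6 differentiated libraries, with NC-Diff 1 and LIGHT-Diff 2 and 3 the highest. The ratio of counts after over before, scaled to library totals without TMM factors, was 290 in control cells (95% counting interval 173 to 531) and 228 in LIGHT cells (160 to 338). With the 2 left out, it was 158 (94 to 290) and 298 (209 to 442).

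Prelp, a class II protein that links basement membranes to collagen through a heparin-binding end, was at 33.5, 28.2 and 32.9 CPM in NC-Undiff and at 130, 115 and 131 CPM in NC-Diff. In LIGHT cells it was at 43.8, 40.6 and 42.6 CPM before and 126, 114 and 118 CPM after differentiation. The 6 differentiated libraries lay close together and far above the undifferentiated ones. The log2 rise was 1.99 in control cells (SE 0.08, adjusted p = 8.26e-10) and 1.50 in LIGHT cells (SE 0.08, adjusted p = 1.07e-08). With the doubted libraries left out, it was 1.98 (SE 0.08, adjusted p = 9.25e-15) and 1.46 (SE 0.07, adjusted p = 1.19e-12). Prelp's listed length, which the tables average over its transcripts, was 3602 to 3615.4 bases before and 3668.5 to 3755 after differentiation.

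Fibromodulin, a class II regulator of collagen fibril growth, was low throughout. It was at 2.02, 1.80 and 1.52 CPM in NC-Undiff, 2.54, 3.40 and 2.52 in LIGHT-Undiff, 6.53, 3.51 and 2.97 in NC-Diff and 3.12, 6.02 and 6.82 in LIGHT-Diff. It rose by 1.28 on the log2 scale in control cells (SE 0.35, adjusted p = 0.00684) and by 0.91 in LIGHT cells (SE 0.34, adjusted p = 0.0333), where LIGHT-Diff 1 overlapped the undifferentiated libraries. Leaving out LIGHT-Undiff 1 or 3 or LIGHT-Diff 2 or 3 lost the call in LIGHT cells (adjusted p = 0.0959, 0.0982, 0.092 and 0.129). Without the 2 doubted libraries the rises were 0.88 (SE 0.25, adjusted p = 0.00379) and 1.18 (SE 0.22, adjusted p = 9.41e-05), with no overlap.

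Osteoglycin, the class III member also called mimecan, was at 27.7, 27.6 and 28.2 CPM in NC-Undiff and at 90.5, 110 and 90.2 CPM in LIGHT-Undiff. After differentiation it was at 34.7, 17.0 and 12.7 CPM in control and 12.9, 31.8 and 32.0 CPM in LIGHT libraries. Every LIGHT-Diff library was below every LIGHT-Undiff library, while NC-Diff 1 was above and NC-Diff 2 and 3 below NC-Undiff. In LIGHT cells Ogn fell by 1.92 on the log2 scale (SE 0.34, adjusted p = 0.000356), or by 1.60 without the 2 libraries (SE 0.10, adjusted p = 2.44e-11). In control cells the change was -0.38 as labelled (SE 0.35, adjusted p = 0.356) and -0.89 without them (SE 0.11, adjusted p = 9.18e-07).

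Osteomodulin, known from bone matrix, was the scarcest member after differentiation, with 6, 6 and 10 counts in NC-Undiff, 23, 23 and 12 in LIGHT-Undiff, 6, 1 and 1 in NC-Diff and 5, 3 and 1 in LIGHT-Diff. In LIGHT cells there were 6.38 times as many counts, scaled to library totals, before as after differentiation (95% counting interval 3.14 to 14.7), or 9.71 times without LIGHT-Diff 1 (3.60 to 36.8). In control cells the ratio was 2.91 (1.25 to 7.56) with adjusted p = 0.119. Without NC-Diff 1 it was 8.08 (1.99 to 70.9, 22 against 2 counts), and the fit without both doubted libraries gave adjusted p = 0.015.

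**Figure D2:**
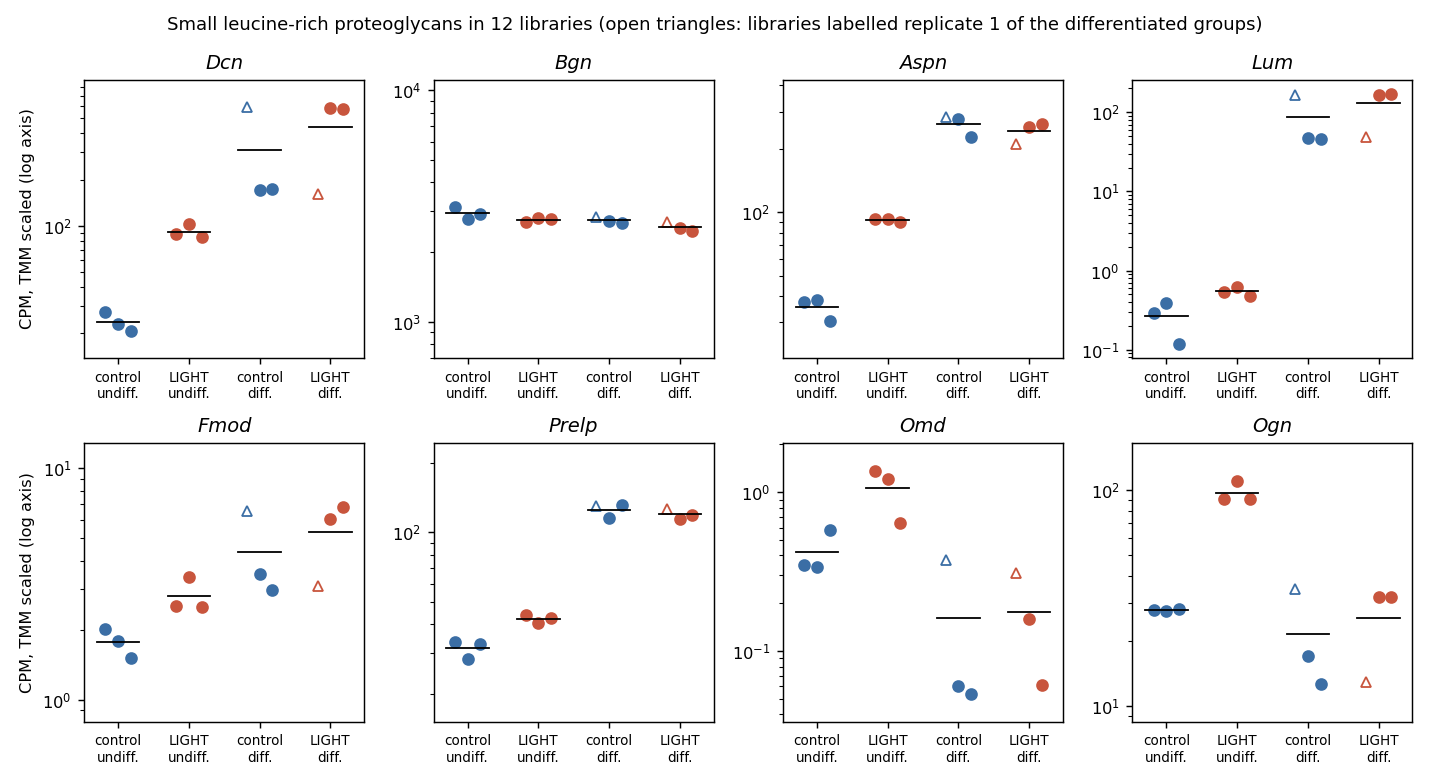
CPM (log axis) of each of the 8 members in the 12 libraries by group. Each point is 1 library, a black line is the mean of the 3 libraries, and open triangles mark NC-Diff 1 and LIGHT-Diff 1. For Dcn, Lum, Fmod and Ogn, NC-Diff 1 lies with LIGHT-Diff 2 and 3, and LIGHT-Diff 1 with NC-Diff 2 and 3. The share of all genes that split in this way is not given here.

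**Figure D3:**
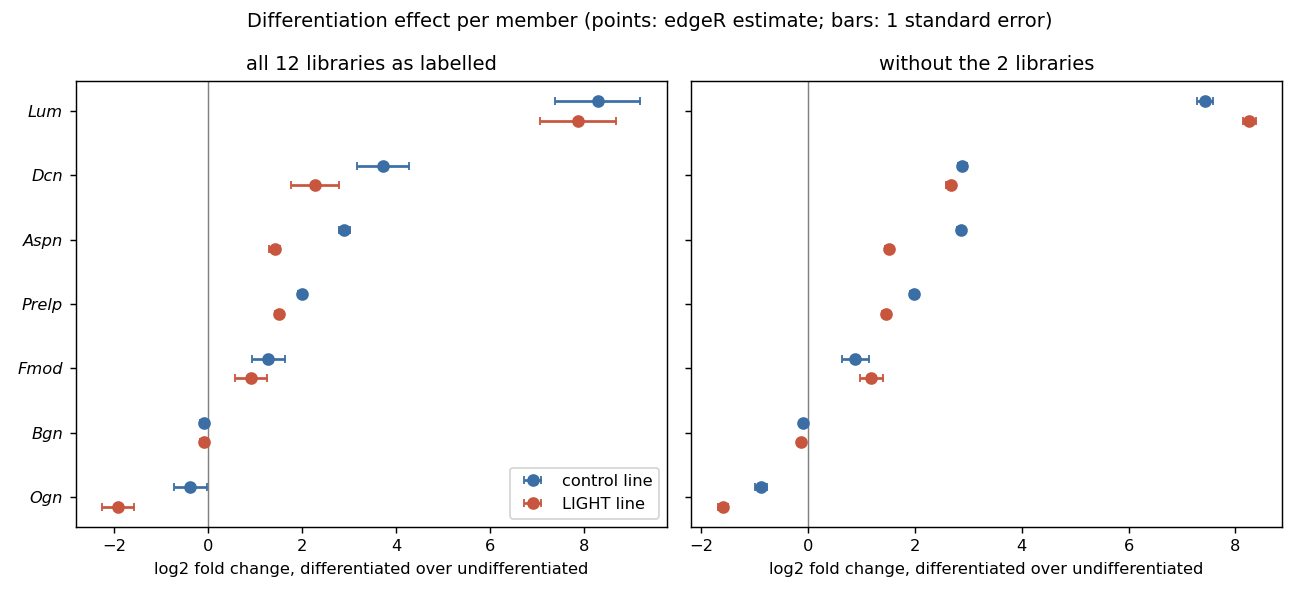
Log2 fold change with differentiation (edgeR, error bars are SE) of 7 members in control and LIGHT cells, for the libraries as labelled and without the 2 doubted ones. Lum is drawn highest (7.86 to 8.29 as labelled), but its direction was fixed by the filter on low counts. Its values rest on 14 counts in NC-Undiff and 30 in LIGHT-Undiff. Bgn lies at -0.10 in both lines as labelled.

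The second question was how the lines differed before differentiation. As a description of the values that chose them, Dcn was 3.88-fold higher in LIGHT-Undiff than in NC-Undiff (log2 1.96), with no overlap. Lum had 30 counts against 14 over the 3 libraries of each group (ratio 2.04). Of the other 6 members, Ogn, Aspn and Prelp were higher in LIGHT cells and none was lower. This is 3 of 6, or 3 of 5 without Omd (below), beside 12.3% of all genes higher and 14.2% lower. Ogn was higher by 1.80 on the log2 scale (SE 0.34, adjusted p = 0.00234), Aspn by 1.37 (SE 0.11, adjusted p = 1.01e-05) and Prelp by 0.42 (SE 0.08, adjusted p = 0.00277). All LIGHT-Undiff libraries stood above all NC-Undiff libraries in these 3 genes, but also in Fmod and Omd, which did not pass. The share of all genes without overlap is not given here.

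Fmod was at log2 0.67 (SE 0.36, adjusted p = 0.192), Omd at a count ratio of 2.50 (counting interval 1.51 to 4.30, adjusted p = 0.107) and Bgn at log2 -0.09 (SE 0.07, adjusted p = 0.393). The fit shares its estimate of spread across all groups. Without the 2 doubted libraries, which are not in these groups, Fmod (0.68, SE 0.23, adjusted p = 0.0211) and Omd (adjusted p = 0.0364) passed too, beside 22.3% of all genes higher and 22.1% lower. Omd was tested only because LIGHT-Undiff was high, so its direction here was fixed by the filter, and among the other 5 members 4 were higher and 0 lower. As labelled, 1 of 4 tested tendon markers was higher and 0 lower (all genes 12.3% and 14.2%). Summed tendon markers were at 49.5 to 52.4 CPM in NC-Undiff and 235 to 259 in LIGHT-Undiff. Egr1 made up most of this, at 32.0 and 224 CPM, while the tendon factor Scx was at 0.192 CPM or less and Thbs4 at 0 in both groups. Summed bone and cartilage markers were at 88.2 to 98.2 and 108 to 117 CPM, and smooth muscle and myofibroblast markers at 1950 to 2157 and 1494 to 1582 CPM. Their part in the differences was not tested.

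The third question was how the lines differed after differentiation. With the libraries as labelled, 0 of 6 members passed in edgeR, and neither did any other gene (0.0% higher, 0.0% lower). Of all genes, 523 had an unadjusted p under 0.05, and DESeq2 called 1 gene. Log2 differences were 0.26 for Ogn (SE 0.35, adjusted p = 0.92), 0.30 for Fmod (SE 0.33, adjusted p = 0.913), -0.11 for Aspn (SE 0.11, adjusted p = 0.913), -0.06 for Prelp (SE 0.08, adjusted p = 0.917) and -0.09 for Bgn (SE 0.07, adjusted p = 0.913). Omd had 9 counts in LIGHT-Diff and 8 in NC-Diff (adjusted p = 0.981).

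Without the 2 libraries, Ogn and Fmod were higher in LIGHT cells, 2 of 6 members, beside 14.6% of all genes higher and 16.4% lower. Ogn was higher by 1.10 on the log2 scale (SE 0.12, adjusted p = 1.38e-06) and Fmod by 0.98 (SE 0.24, adjusted p = 0.00437), with LIGHT-Diff 2 and 3 above NC-Diff 2 and 3 in both. Aspn (0.03, adjusted p = 0.814), Prelp (-0.08, adjusted p = 0.447) and Bgn (-0.11, adjusted p = 0.19) did not pass. As a description, Dcn was at 170 and 174 CPM in NC-Diff 2 and 3 and at 586 and 574 in LIGHT-Diff 2 and 3, a log2 difference of 1.74, against 0.49 as labelled. The ratio of Lum counts, scaled to library totals, in LIGHT-Diff over NC-Diff was 3.83 without the 2 libraries and 1.60 as labelled, where the groups overlapped. The 2 left out were chosen by Tnfsf14, and the 3 differentiated libraries with Tnfsf14 counts above 0 were also the 3 highest for Dcn, Lum, Fmod and Ogn. The share of all genes that split in this way is not given here, so the split cannot be read as particular to these members. Markers of some cell types also differed without the 2 libraries, while other lists were split. Of 7 adipocyte markers 6 were lower and 0 higher in LIGHT cells (median log2 difference -0.45, summed level 14100 to 14990 CPM in NC-Diff and 9450 to 9749 in LIGHT-Diff). Of 4 tested tendon markers 3 were higher and 0 lower (246 to 248 and 325 to 326 CPM, mostly Egr1, with Scx near 0). Summed smooth muscle and myofibroblast markers were at 183.5 to 219.9 CPM in NC-Diff and 334 to 356 in LIGHT-Diff. Most of this was Acta2 (means as labelled 211 and 248 CPM), and of 5 tested genes 1 was higher and 1 lower. Summed fibroblast and preadipocyte markers were at 5739 to 5771 and 5522 to 5555 CPM, with 2 of 8 genes higher and 3 lower. Their part in the differences was not tested.

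**Figure D4:**
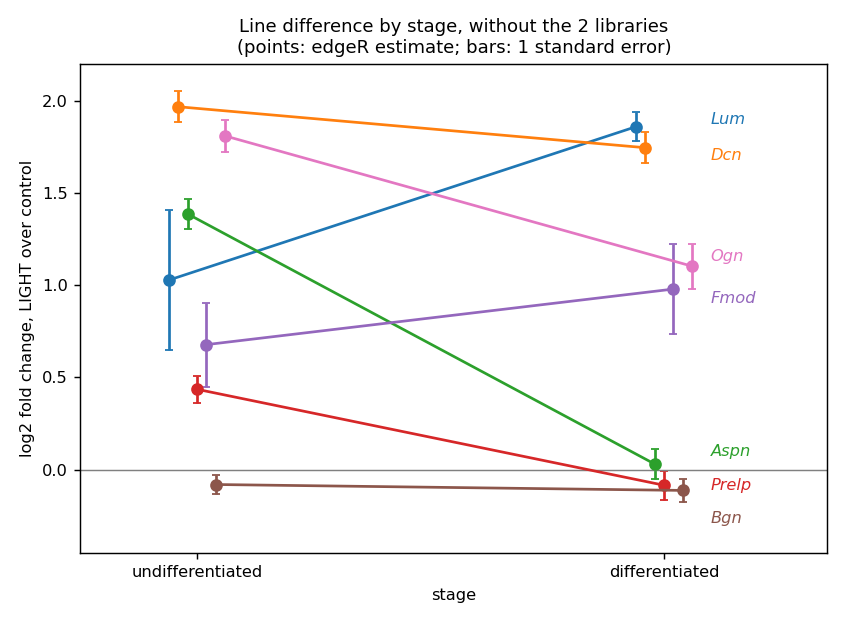
Log2 difference between LIGHT and control cells before and after differentiation for 7 members, without the 2 doubted libraries, 1 line per gene (edgeR, error bars are SE). Aspn goes from 1.39 to 0.03 and Ogn from 1.81 to 1.10, while Dcn stays between 1.74 and 1.97. Dcn and Lum had been noted as higher in LIGHT cells, so their lines are a description with no test.

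The last comparison was whether differentiation changed members differently in the 2 lines, tested as the interaction of line and stage (effect in LIGHT minus effect in control cells). Aspn and Prelp rose less in LIGHT cells, 2 of 6 members with a lower effect and 0 with a higher one, beside 4.26% and 5.08% of all genes. Omd passed the low-count filter only through LIGHT-Undiff, and without Omd the count was 2 of 5. The interaction was -1.49 for Aspn (SE 0.16, adjusted p = 0.000283) and -0.49 for Prelp (SE 0.11, adjusted p = 0.0184). For both genes the undifferentiated LIGHT libraries were higher and the differentiated groups overlapped. The Prelp call was lost without LIGHT-Undiff 1 (-0.46, adjusted p = 0.0536). Ogn was at -1.53 (SE 0.48, adjusted p = 0.0666) as labelled and passed at -0.71 without the 2 libraries (SE 0.15, adjusted p = 0.00132). This made 3 of 6 members lower, or 3 of 5 without Omd (background 16.1% lower, 14.9% higher). Aspn was then at -1.35 (adjusted p = 6.94e-08) and Prelp at -0.52 (adjusted p = 0.00106). Fmod was at -0.37 (adjusted p = 0.694) as labelled and 0.30 (adjusted p = 0.539) without them.

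Among 10 other small leucine-rich proteoglycans, 4 were abundant enough to test. Kera, the corneal proteoglycan keratocan and neighbour of Lum, had 0 counts in all 6 undifferentiated libraries. It had 14, 6 and 12 counts in NC-Diff and 3, 34 and 27 in LIGHT-Diff, so with 3 counts per undifferentiated group as the floor it was at least 10.1-fold higher in control and at least 21.5-fold higher in LIGHT cells, or at least 8.16-fold and 30.4-fold higher without the 2 libraries. LIGHT-Diff 2 and 3 were the highest and LIGHT-Diff 1 the lowest. Podnl1 fell from 13.9 to 5.63 CPM in control cells (log2 -1.31, adjusted p = 5.18e-06) and from 12.7 to 5.91 in LIGHT cells (-1.10, adjusted p = 2.76e-05). Ecm2, neighbour of Aspn, went from 1.01 to 2.08 CPM (adjusted p = 0.0818) and from 1.24 to 2.27 CPM (adjusted p = 0.128), and passed without the 2 libraries (adjusted p = 0.0439 and 0.00386). Tsku, at 31.3 to 36.3 CPM in the group means, did not pass with differentiation in either line. Epyc, Optc, Chad, Chadl, Nyx and Podn were too low to test.

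Genes that build, bind or cut these proteins were followed as lists. Of 27 tested genes for glycosaminoglycan chain synthesis, 8 rose and 6 fell with differentiation in control cells and 8 rose and 7 fell in LIGHT cells, shares near those of all genes (32.2% and 31.7%, 29.5% and 29.1%). Without the 2 libraries 9 rose and 8 fell in control and 11 rose and 7 fell in LIGHT cells, beside 35.8% and 34.9% and 32.3% and 31.9% of all genes. All 20 genes named in these lists kept their direction and their call in both lines without the 2 libraries. The chondroitin sulfotransferase Chst11 went from 14.1 to 73.2 CPM in control cells (log2 2.37, adjusted p = 6.95e-07) and from 12.4 to 59.6 in LIGHT cells (2.27, adjusted p = 1.49e-06). Chsy1, a chondroitin polymerase, rose by 0.47 and 0.54 on the log2 scale (adjusted p = 0.000628 and 0.000269). Csgalnact1, which starts chondroitin chains, changed by -0.91 and -0.75 (adjusted p = 0.000267 and 0.00129), and Ugdh, which makes the UDP-glucuronate they need, by -0.43 and -0.50 (adjusted p = 7.21e-05 and 2.37e-05).

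Of 30 tested genes for fibrillar collagens and fibril assembly, 12 rose and 12 fell in control cells and 11 rose and 11 fell in LIGHT cells. The shares of all genes were 32.2% and 31.7%, and 29.5% and 29.1%. Without the 2 libraries 13 rose and 13 fell in each line (all genes 35.8% and 34.9% in control, 32.3% and 31.9% in LIGHT cells). Before differentiation 10 were higher and 6 lower in LIGHT cells (all genes 12.3% and 14.2%). Dpt (dermatopontin, which binds decorin) was at 8.66 CPM in NC-Undiff, 21.8 in LIGHT-Undiff, 76.4 in NC-Diff and 73.4 in LIGHT-Diff. Its log2 rise was 3.14 in control and 1.76 in LIGHT cells (adjusted p = 3.22e-10 and 3.3e-08), and it was higher in LIGHT-Undiff by 1.33 (adjusted p = 1.61e-05). Col6a2, a chain of collagen VI, which binds biglycan and decorin, was at 465, 1040, 3107 and 2953 CPM in the same order of groups (log2 2.74 and 1.51 with differentiation, adjusted p = 3.3e-10 and 5.87e-08). The collagen cross-linking enzymes Lox (-0.99 and -1.46, adjusted p = 4.22e-08 and 1.93e-09) and Loxl4 (-2.81 and -2.52, adjusted p = 9.83e-10 and 3.2e-09) were lower after differentiation in both lines.

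Of 14 tested proteases and inhibitors that act on core proteins, 2 rose and 8 fell in control cells (all genes 32.2% and 31.7%) and 3 rose and 5 fell in LIGHT cells (29.5% and 29.1%). Without the 2 libraries 2 rose and 10 fell in control cells (35.8% and 34.9%), and 5 rose and 5 fell in LIGHT cells (32.3% and 31.9%). The metalloproteinase Mmp3 was at 42.0 CPM in NC-Undiff and 6.77 in LIGHT-Undiff, and at 12.4 and 12.5 after differentiation (log2 -1.76 in control and 0.88 in LIGHT cells, adjusted p = 1.96e-06 and 0.00125). The inhibitor Timp3 was at 40.0 CPM in NC-Undiff, 7.67 in LIGHT-Undiff, 1.47 in NC-Diff and 0.608 in LIGHT-Diff, lower after differentiation in both lines (log2 -4.74 and -3.69, adjusted p = 7.95e-07 and 4.28e-05). With the 2 left out, the Timp3 changes were -4.25 and -4.87 (adjusted p = 1.24e-15 and 8.51e-13). Timp1 was lower too (-2.37 and -1.65, adjusted p = 9.82e-07 and 2.55e-05), and Timp4 went from 1 count over each undifferentiated group to 38.8 and 28.0 CPM. With the doubted libraries left out, 9 of the 14 were higher and 3 lower in LIGHT-Diff than in NC-Diff (all genes 14.6% and 16.4%), where 0 passed as labelled.

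Of 19 tested receptors and bound growth factors, 5 rose and 12 fell in control cells (all genes 32.2% and 31.7%) and 4 rose and 12 fell in LIGHT cells (29.5% and 29.1%). The counts were the same without the 2 libraries, where all genes stood at 35.8% and 34.9%, and 32.3% and 31.9%. Ctgf, a matricellular growth factor that decorin binds, was at 31.9 CPM in NC-Undiff, 7.53 in LIGHT-Undiff, 0.364 in NC-Diff and 0.373 in LIGHT-Diff (log2 -6.40 and -4.32 with differentiation, adjusted p = 6.5e-11 and 3.41e-09). Wisp1, of the same family, changed by -2.12 and -2.07 (adjusted p = 5.09e-10 and 8.34e-10), and Cd14, a Toll-like coreceptor for biglycan, by -1.34 and -0.90 (adjusted p = 3e-07 and 1.37e-05). Tgfbr1, a receptor of transforming growth factor beta, rose by 1.27 and 0.80 (adjusted p = 2.48e-07 and 1.84e-05). Of 13 tested proteoglycans of other families, 5 rose and 5 fell in control cells and 4 rose and 6 fell in LIGHT cells. The shares of all genes were 32.2% and 31.7%, and 29.5% and 29.1%. Without the 2 libraries 5 rose and 7 fell, and 4 rose and 7 fell (all genes 35.8% and 34.9%, 32.3% and 31.9%). Among the named ones Prg4 (lubricin) rose by 4.19 and 5.32 on the log2 scale (adjusted p = 6.95e-07 and 3.1e-07), and the heparan sulfate proteoglycans Sdc1 (-0.79 and -0.71, adjusted p = 1.08e-07 and 3.5e-07), Sdc3 (-0.43 and -0.55, adjusted p = 0.000357 and 6.38e-05) and Agrn (-0.59 and -1.11, adjusted p = 0.00278 and 2.3e-05) were lower in both lines.

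Across the 12 libraries, which share stage and line, log2 CPM of the members fell into differing patterns. Pearson's r was 0.97 for Dcn with Fmod and for Lum with Prelp, 0.908 for Dcn with Lum and 0.779 for Ogn with Omd. For the neighbours Aspn and Ogn it was -0.284, and for Dcn with Ogn -0.095. Among 10852 other genes the pattern most like Dcn was that of the transcription factor Maf (r = 0.991), followed by Plekha8 (0.990) and Fkbp14 (0.990). For Lum it was Zhx3 (0.997), Bcl2l13 (0.994) and the complement component C3 (0.993). For Aspn it was Negr1 (0.995), Add3 (0.995) and Ak3 (0.994), for Prelp the Wnt coreceptor Lrp5 (0.997), Bckdha (0.995) and Hadh (0.995), for Ogn Eif1ax (0.985), Maged2 (0.984) and Pir (0.983), and for Bgn Nptn (0.956), Pisd-ps1 (0.944) and Ganab (0.919). These values describe libraries that share their groups.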

How the data were processed

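RNA of 12 libraries of 3T3-L1 cells was sequenced on an Illumina HiSeq, per the series' design text. For each library the authors deposited a table of gene lengths, expected counts (estimates that need not be whole) and FPKM, per the file headers. The submitters' processing notes name build mm8. The aligner and counter are not named in those notes. Of 18255 listed genes, 17367 had a symbol, and a gene missing from a table was read as 0. Whether strand was used is not given, so overlapping genes cannot be told apart.

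Expected counts were rounded and tested in edgeR 4.0.16 (R 4.3.3; quasi-likelihood test, TMM, filterByExpr with minimum count 10) over all 12 libraries with 1 coefficient per group. P-values were adjusted by Benjamini-Hochberg over all 12993 genes tested (13150 without the 2 doubted libraries), with a threshold of 0.05. All adjusted p-values are from edgeR. DESeq2 1.42.0 was an alternative, as were other scaling and filters, leaving out each library, leaving out the 2 doubted ones and a replicate block. The procedure was tested on simulated data. FPKM served only for levels between genes. Count ratios and floors were scaled to library totals, without TMM factors. Counting intervals are exact at 95% and, like floors, cover counting error only, since PCR reads are not independent molecules.

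All 8 members were named, with all detected relatives, at most 4 genes per related list by rank of p over both differentiation contrasts (group mean of at least 5 CPM), and the 3 genes most correlated with each member above that level. The members and lists were chosen with earlier results of these data known. Promoters came from RefSeq GRCm38.p6, another build than that of the counts. Protein sequences were not used here.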

Additional observations from a re-analysis of the deposited data

Results flagged for a closer look

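Differentiation changed Aspn differently in the 2 lines by a test of the difference itself: the effect in LIGHT cells minus that in control cells was -1.487 on the log2 scale (edgeR, adjusted p = 0.000283). The log2 rise with differentiation was 2.90 in control cells and 1.41 in LIGHT cells, and 3 of 3 LIGHT-Undiff libraries stood above 3 of 3 NC-Undiff libraries. The same test gave -0.489 for Prelp (adjusted p = 0.0184), with rises of 1.99 and 1.50.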

How the results depend on the processing

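The differentiation results for Dcn, Aspn and Prelp and the Aspn interaction kept their direction and their side of the threshold under every alternative run. Replicate numbers showed no strong pairing. Deviations of same-numbered libraries correlated at -0.618 (NC-Diff 1 with LIGHT-Diff 1) to 0.097, and those of differently numbered ones at -0.304 to 0.46. Between the stages of 1 line, same-numbered libraries correlated at 0.036 to 0.097 and differently numbered ones at -0.089 to 0.006. With a replicate block, the rise of Fmod in LIGHT cells no longer passed (0.93, adjusted p = 0.0567) and no other call on a member changed, and with library totals in place of TMM it did not pass either (0.85, adjusted p = 0.0545). Library totals moved the median of all genes by -0.113 in control and -0.08 in LIGHT cells with differentiation, and Bgn then passed at -0.21 and -0.18 (adjusted p = 0.0168 and 0.0414). Before differentiation, 5 members passed between lines with only the contrast's groups or without the 2 doubted libraries, against 3, with Fmod and Omd added. Without the 2 libraries 22.3% of all genes were higher and 22.1% lower, against 12.3% and 14.2%. The share of all genes with only the contrast's groups is not given here. The direction of Omd was fixed by the filter, which it passed only through LIGHT-Undiff. After differentiation, 2 members passed without the 2 libraries, against 0. Of all genes 14.6% were then higher and 16.4% lower, against 0.0% and 0.0%. Leaving out single libraries gave 1 to 3 members for the interaction, and the share of all genes in these fits is not given here. In the same series the differentiated line difference ranged from -0.47 to 1.51 for Omd and from -0.009 to 0.79 for Ogn. The interaction ranged from -0.052 to 0.037 for Bgn, from -0.589 to 0.037 for Fmod and from -1.804 to 0.17 for Omd. Values that changed sign otherwise were the differentiated line difference of Aspn without the 2 libraries (0.031), the Bgn interaction with library totals (0.034) and the Fmod interaction without the 2 libraries (0.30). The Ogn interaction passed with no filter (adjusted p = 0.0427) or without NC-Diff 3 (adjusted p = 0.0332), and the fall of Ogn in control cells passed without NC-Diff 1 (adjusted p = 0.0148). The cause of these changes was not tested. Depth limits Omd and undifferentiated Lum, which had at most 23 counts per library.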

Other observations

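The ratio of Dcn to Lum in FPKM was 65.4 to 203 in NC-Undiff and 182 to 193 in LIGHT-Undiff, and 3.65 to 4.22 in all 6 differentiated libraries, although Dcn itself ranged from 162 to 595 CPM among those 6. The undifferentiated ratios rest on 2 to 7 Lum counts per library in NC-Undiff and 9 to 12 in LIGHT-Undiff, so they are imprecise. Leukocyte markers summed to 4.04 CPM or less in every library, and endothelial and epithelial markers to 1.24 CPM or less before and 1.93 to 11.6 CPM after differentiation.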
